A study of Mus musculus with 12 samples.

Results

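The 9 genes described here encode surface proteins with which macrophages hold other cells and matrix: Icam1, Vcam1, Itgal, Itgb2, Itga4, Itga5, Itgav, Cd44 and Selplg. They were taken as the probes whose gene name in the scanner files was a listed member, which gave 9 of the 27667 gene names on the array. Selplg was carried there under its older name Selpl. The label of the set was checked against the data: all 9 genes had a probe well above background on all 12 arrays, and so did 8 of 8 macrophage markers.

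ICAM-1 and VCAM-1 are immunoglobulin-type ligands that activated cells display. ICAM-1 is bound by the leukocyte integrins LFA-1 (the αL chain of Itgal with the β2 chain of Itgb2), Mac-1 (Itgam with Itgb2) and, less well, CD11c/CD18 (Itgax with Itgb2), while VCAM-1 is bound by integrins that hold the α4 chain of Itga4. The α5 and αv chains pair with β chains to form receptors of fibronectin, vitronectin and related matrix proteins, CD44 binds hyaluronan, and PSGL-1, the product of Selplg, is the ligand with which leukocytes roll on selectins.

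The study asked which transcripts are induced by apoA-I, the chief protein of HDL particles, in macrophages and how far that needs MyD88, an adaptor of Toll-like and interleukin-1 receptor signalling. There were 4 groups of 3 samples, 1 array each: MyD88-null cells with apoA-I, MyD88-null control cells, C57BL/6 cells with apoA-I and C57BL/6 control cells. The C57BL/6 cells are the MyD88 +/+ side of the design. All cells were peritoneal macrophages of female mice aged 10 weeks, collected 96 h after a thioglycollate injection, which draws inflammatory macrophages into the cavity. All were loaded overnight with cholesterol at 10 µg/ml and then kept with polymyxin B, an agent that binds endotoxin, at 25 µg/ml, so the control cells carried the loading and polymyxin B as well. ApoA-I was given at 10 µg/ml for 2 h after a wait of 30 min. The strain label says no more of the null mice than MyD88-/-, and the labels do not say which animals, or how many, gave each sample, so the p-values measure only the spread between these samples.

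The titles and sources of 2 samples conflict with their descriptions: the description of C57BL/6 control replicate 2 includes apoA-I, and that of MyD88-null apoA-I replicate 2 leaves it out. Samples were grouped by title, and the members' differences are also given without these samples. For Icam1 the MyD88-null apoA-I sample in question had a log2 level of 7.27 and the C57BL/6 control sample one of 4.23, each beside the other samples of its title group. Icam1 is itself tested under this grouping, so its levels are not separate support for the titles. Levels are log2 of the processed intensity relative to the 75th percentile of the same array, and a probe's level is never set against another probe's. The 75th percentile lay between 199.5 and 1408 intensity units, and 57.6% to 73.6% of probes were above background. The highest share and the lowest percentile both belong to MyD88-null apoA-I replicate 1. The Myd88 probe had levels of 1.87, 2.10 and 1.40 in MyD88-null controls, below 3.48, 3.49 and 2.96 in C57BL/6 controls. With apoA-I it had 2.75, 3.25 and 2.43 in MyD88-null cells and 4.17, 4.29 and 3.41 in C57BL/6 cells, so null samples lay below C57BL/6 samples under both treatments. The differences were -1.52 (SE 0.322, limma's adjusted p = 0.215) in controls and -1.15 (adjusted p = 0.942) with apoA-I. Whether this probe lies in the deleted stretch of the gene is not given, so the lower signal does not by itself establish the labels.

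The sequences behind the measurements are shown for the probes that serve as a second reading of Icam1 and Vcam1 and for the Cd44 probe whose transcript list differs from that of the other Cd44 probes. They are 60-base probes of the array design, 5′ to 3′, with mm7 positions as the files give them. The Icam1 probe lies at chr9:20904404-20904463 on the plus strand, the Vcam1 probe at chr3:115900948-115901007 on the minus strand and the Cd44 probe at chr2:102685050-102685109 on the minus strand.
Icam1 probe A_52_P613241: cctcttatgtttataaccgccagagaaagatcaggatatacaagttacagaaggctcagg
Vcam1 probe A_52_P520495: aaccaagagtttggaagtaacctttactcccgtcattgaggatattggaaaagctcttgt
Cd44 probe A_51_P407053: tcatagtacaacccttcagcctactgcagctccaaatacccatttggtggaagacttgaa

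The bases before the Icam1 start site are shown because Icam1 was the 1 member called with apoA-I and motifs of inflammatory transcription factors could be read there. They are RefSeq's, at chr9:21015690-21015939 of GRCm38.p6, plus strand, 250 bases ending just before the start. The capitals mark the letters GGAAATTCC and GGGNNNNNCC (on the minus strand), both forms of the NF-kappaB motif, and TTCNNNGAA, the GAS motif that STAT factors bind.
Icam1 promoter: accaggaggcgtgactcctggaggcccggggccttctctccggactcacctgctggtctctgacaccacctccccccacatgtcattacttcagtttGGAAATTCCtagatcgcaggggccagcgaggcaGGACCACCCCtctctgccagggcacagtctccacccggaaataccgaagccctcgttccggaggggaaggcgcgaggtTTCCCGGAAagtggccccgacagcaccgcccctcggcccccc

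Icam1 rose with apoA-I in both genotypes and was the 1 member called, that is, with an adjusted p under 0.05 over all genes. Its levels were 6.79, 7.27 and 6.51 with apoA-I and 2.07, 2.60 and 2.22 in control MyD88-null cells. In C57BL/6 cells they were 6.95, 7.55 and 7.08 with apoA-I and 4.31, 4.23 and 3.77 in controls. The apoA-I samples of both genotypes lay together near 7, and every one was above every control, while the controls formed a lower null set and a higher C57BL/6 set that did not overlap. The response was 4.56 on the log2 scale in MyD88-null cells (SE 0.274, 23.5-fold, limma's adjusted p = 4.45e-05). It was 3.09 in C57BL/6 cells (SE 0.274, 8.53-fold, adjusted p = 0.000583). Among 16744 genes tested, Icam1 ranked 32nd by increase in MyD88-null cells and 51st in C57BL/6 cells. Without the 2 samples of conflicting description the C57BL/6 response was 3.15 (adjusted p = 0.00889) and the MyD88-null response 4.35 (adjusted p = 0.00218). With the treatment of these 2 samples read from their descriptions instead, Icam1 was no longer called, at 3.11 in MyD88-null cells (adjusted p = 0.879) and 2.41 in C57BL/6 cells (SE 1.39).

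**Figure D1:**
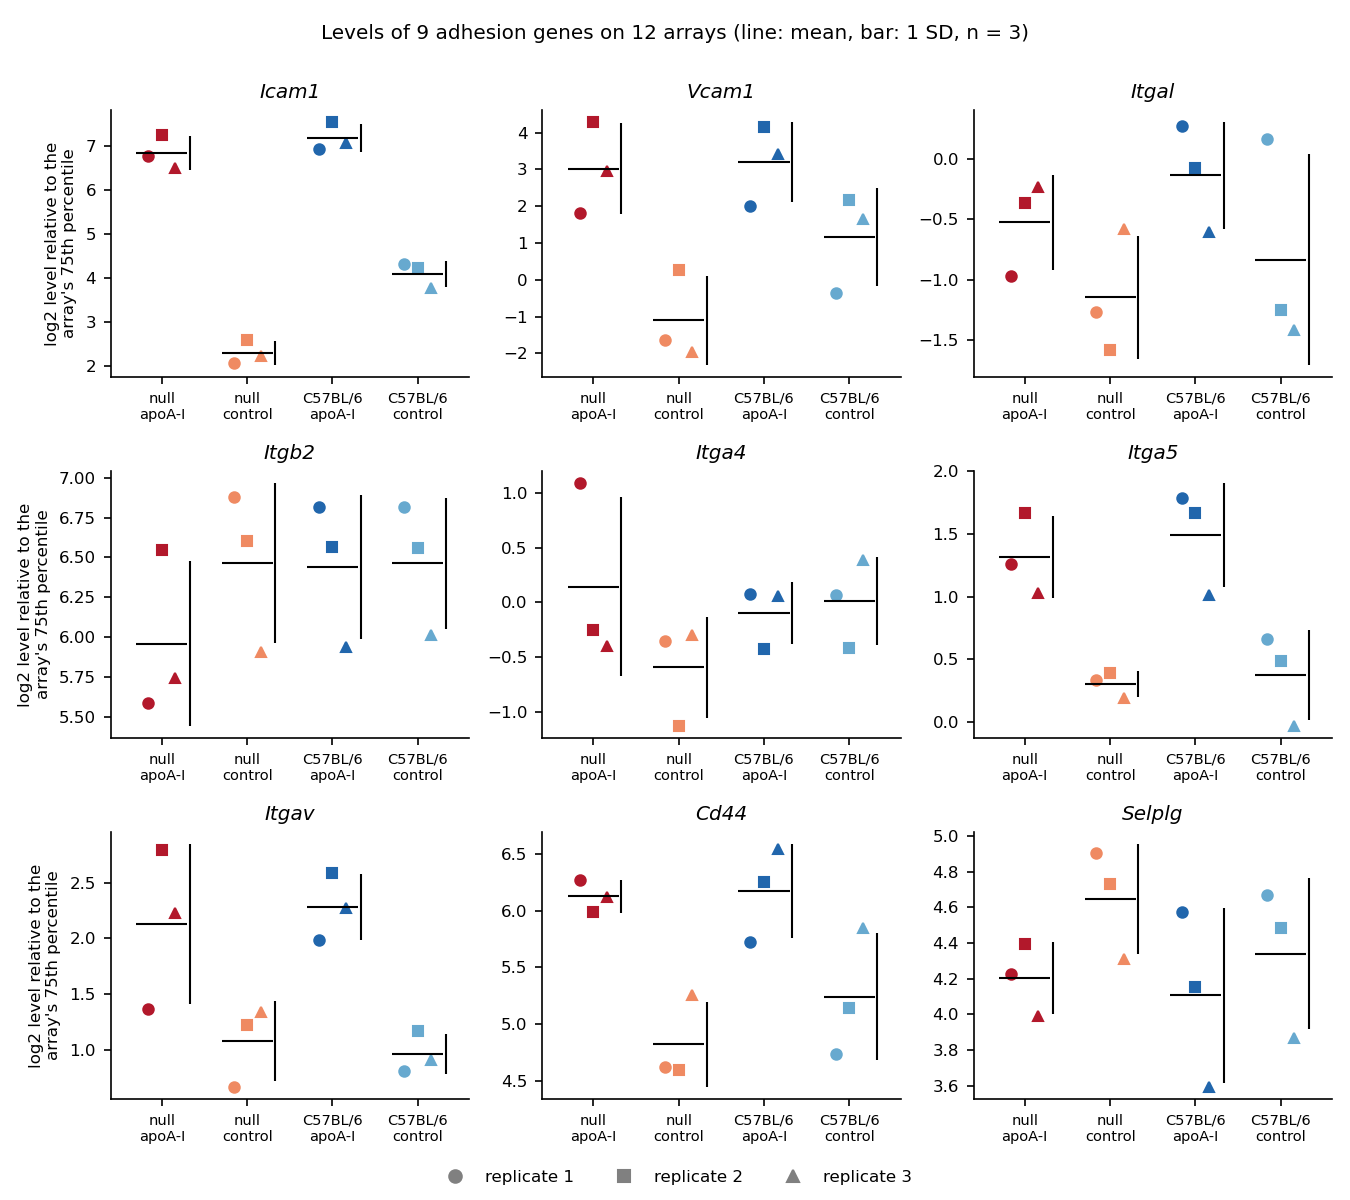
Log2 level of each of the 9 genes (relative to the array's 75th percentile, vertical axis) on every array, in MyD88-null and C57BL/6 cells with apoA-I and in control. Points are single arrays, horizontal lines are group means, and vertical bars show the standard deviation above and below the mean. The apoA-I arrays of Icam1 sit between 6.51 and 7.55, above all control arrays, whereas those of Itgb2 and Selplg overlap the controls in both genotypes.

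The number of members called was 1 of 9 in MyD88-null cells, where 1.14% of all genes were called, and 1 of 9 in C57BL/6 cells, where 0.83% were. With the replicate experiment as a block the calls became 5 of 9 in MyD88-null cells (Icam1, Vcam1, Itga5, Itgav and Cd44) and 4 of 9 in C57BL/6 cells (without Cd44), while the genes called became 682 and 570 of 16744. Counting only samples, 5 of 9 members were higher on every MyD88-null apoA-I array than on any MyD88-null control array, against 6.3% of all genes. In C57BL/6 cells the count was 3 of 9 (Icam1, Itga5 and Itgav), against 6.77% of all genes. No member was lower on every apoA-I array, as 5.35% of all genes were in MyD88-null cells and 6.35% in C57BL/6 cells. Without the 2 samples of conflicting description, an alternative for these counts chosen after seeing the data, 5 of 9 were higher in MyD88-null cells (10.7% of all genes) and 4 of 9 in C57BL/6 cells, where Vcam1 joined (10.6% of all genes). In that setting 2 of 9 members, Itgb2 and Selplg, were lower on every MyD88-null apoA-I array (8.71% of all genes), and none in C57BL/6 cells (9.47%). The members' median response was 1.01 in MyD88-null cells and 0.93 in C57BL/6 cells, beside medians over all genes of 0.052 and -0.0022. The members were chosen with earlier results of these data known. These counts and medians therefore describe the listed genes and do not test adhesion genes as a class.

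**Figure D2:**
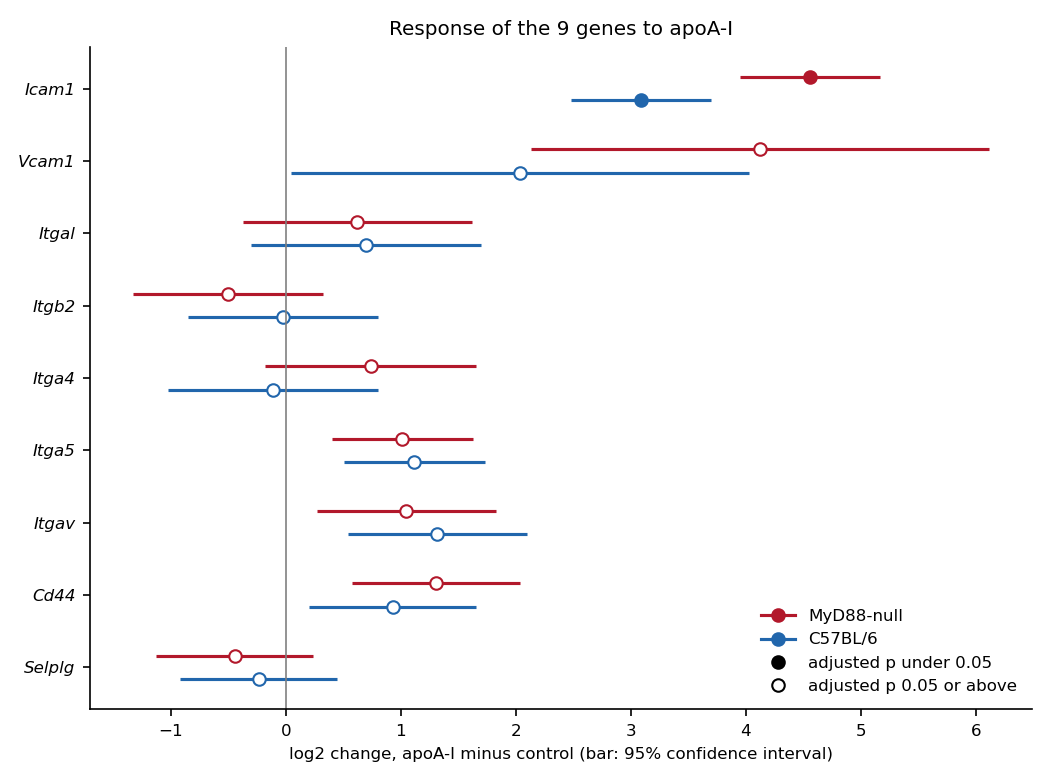
Log2 response to apoA-I of the 9 genes (horizontal axis) in MyD88-null and in C57BL/6 cells, with 95% confidence intervals from limma. Icam1 stands at 4.56 and 3.09, and the intervals of Itgal, Itgb2, Itga4 and Selplg span 0 in both genotypes.

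The other Icam1 probe, whose sequence is shown above, gave a response of 4.46 in MyD88-null cells (limma's adjusted p among probes = 0.00309) and of 3.11 in C57BL/6 cells (SE 0.570, adjusted p = 0.0384). Both probes thus gave a response of the same direction and similar size. By number of the experiment, Icam1 was higher with apoA-I by 4.72, 4.66 and 4.29 in MyD88-null cells and by 2.64, 3.33 and 3.31 in C57BL/6 cells, so the response was larger in the null cells in each experiment. Within the scan days that held both treatments the response was 5.19, 4.19 and 4.29 in MyD88-null cells and 2.98 and 3.31 in C57BL/6 cells.

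The response of Icam1 differed between genotypes by 1.46 (SE 0.388, 95% interval 0.60 to 2.33), with an unadjusted p of 0.00352 in limma and an adjusted p of 1, or 0.280 with the experiment as a block. Without the 2 samples of conflicting description the difference was 1.20 (adjusted p = 0.998), and by their descriptions 0.70 (SE 1.96). None of these adjusted values passed, and limma called no gene for this difference (0% of 16744 genes, with 196 genes at an unadjusted p under 0.05). The genotypes lay apart in the controls: Icam1 was -1.80 in MyD88-null against C57BL/6 controls (SE 0.274, adjusted p = 0.0516), or 3.49-fold lower, and the groups did not overlap. By experiment the differences were -2.24, -1.62 and -1.55, within the 2 scan days that held both groups they were -2.20 and -1.55, and with the experiment as a block the adjusted p was 0.00429. With apoA-I the genotypes overlapped, with a difference of -0.34 (SE 0.274, adjusted p = 0.998). Without the conflicting samples the control difference was -1.74 (adjusted p = 0.316), and by their descriptions -0.50 (SE 1.39). The other Icam1 probe was -2.29 in MyD88-null against C57BL/6 controls. Icam1 was the only member whose null control samples all lay below the C57BL/6 controls, a pattern found in 3.49% of all genes. No member was called between genotypes in controls, where 0.0956% of genes were and 589 had an unadjusted p under 0.05. None was called with apoA-I either, where 0.0657% of genes were and 656 had an unadjusted p under 0.05. Because the response and the control level share the control samples, the smaller control level and the larger response in null cells are not separate measurements. In these bulk samples fewer cells of a kind and less RNA per cell cannot be told apart.

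**Figure D3:**
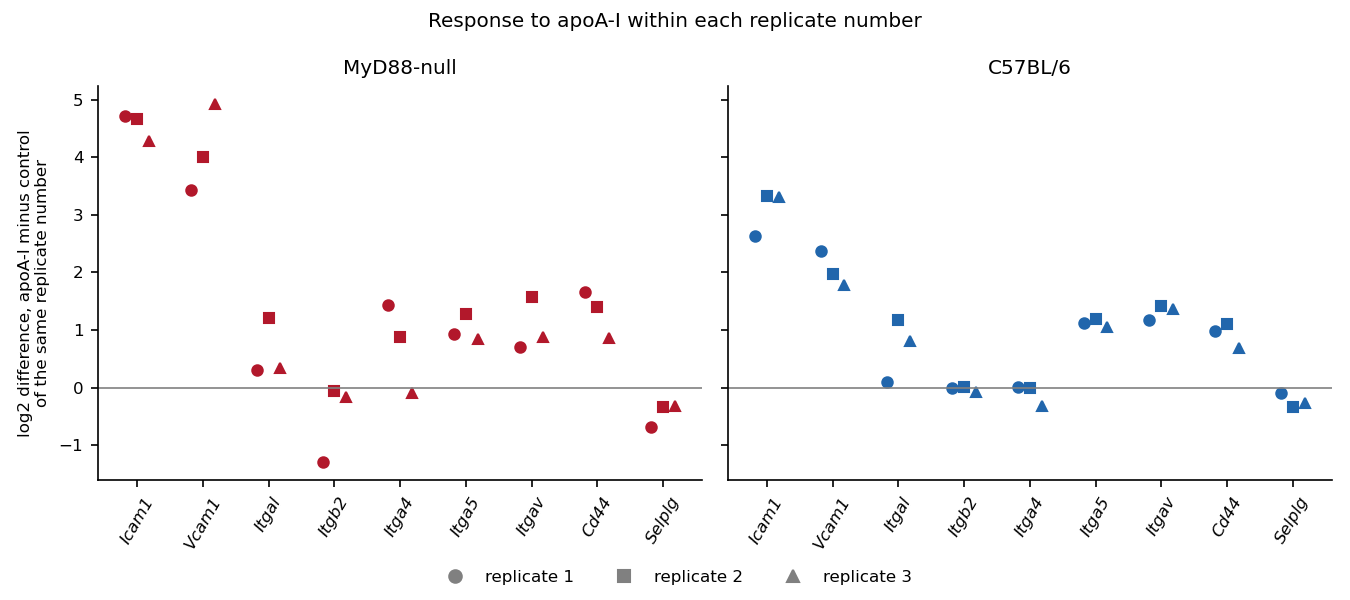
Log2 difference between the apoA-I and the control sample of the same experiment number (vertical axis) for each of the 9 genes, by genotype, with 1 point per experiment. All 3 points of Icam1 lie between 4.29 and 4.72 in MyD88-null cells and between 2.64 and 3.33 in C57BL/6 cells.

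Vcam1, the ligand of α4 integrins, had levels of 1.81, 4.29 and 2.96 with apoA-I and -1.63, 0.28 and -1.96 in control MyD88-null cells. In C57BL/6 cells it had 2.02, 4.15 and 3.43 with apoA-I and -0.35, 2.18 and 1.65 in controls. Replicate 2 was the highest of its group in all 4 groups, and apoA-I and control samples overlapped in C57BL/6 cells but not in MyD88-null cells. The difference was 4.13 in MyD88-null cells (17.4-fold, limma's adjusted p = 0.0711) and 2.04 in C57BL/6 cells (SE 0.896, adjusted p = 0.653), so neither passed. Against the control of its own experiment, Vcam1 was higher by 3.44, 4.01 and 4.93 in MyD88-null cells and by 2.37, 1.98 and 1.78 in C57BL/6 cells. The MyD88-null pairs of experiments 1 and 2 came from different scan days. Within scan days Vcam1 was higher by 5.92, 1.53 and 4.93 in MyD88-null cells, which is less even. In C57BL/6 cells it was higher by 2.17 and 1.78 within scan days. With the experiment as a block, which takes out the shared height of replicate 2, the adjusted p was 0.000640 in MyD88-null cells and 0.0280 in C57BL/6 cells. The other Vcam1 probe gave 2.72 (adjusted p among probes 0.0777) in MyD88-null cells and 1.77 (adjusted p 0.401) in C57BL/6 cells. Without the conflicting samples the differences were 3.49 in MyD88-null cells (adjusted p = 0.342) and 2.55 in C57BL/6 cells (adjusted p = 0.663). The responses differed between genotypes by 2.09 (SE 1.27, unadjusted p = 0.13), or by 0.94 without the conflicting samples. The control levels differed by -2.27 between MyD88-null and C57BL/6 cells (SE 0.896), with overlap, and passed with the experiment as a block (adjusted p = 0.0453); without the conflicting samples they differed by -1.76.

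Neither chain of LFA-1 was called with apoA-I, and both changed less than Icam1. Itgb2, the β2 chain shared by the ICAM-1 receptors, had levels of 5.59, 6.55 and 5.75 with apoA-I and 6.88, 6.60 and 5.91 in control MyD88-null cells. The C57BL/6 levels were 6.81, 6.56 and 5.94 with apoA-I and 6.82, 6.56 and 6.02 in controls. The groups overlapped in both genotypes, in MyD88-null cells through apoA-I replicate 2 alone, which is a sample of conflicting description, and in C57BL/6 cells each apoA-I sample lay within 0.076 of the control of its experiment. The differences were -0.50 in MyD88-null cells (adjusted p = 0.784), or -0.80 without the conflicting samples (adjusted p = 0.841), and -0.025 in C57BL/6 cells (SE 0.371). Itgal, the αL chain, had levels of -0.97, -0.37 and -0.24 with apoA-I and -1.27, -1.58 and -0.58 in control MyD88-null cells. The C57BL/6 cells had 0.27, -0.07 and -0.61 with apoA-I and 0.17, -1.25 and -1.42 in controls. These groups overlapped too, with differences of 0.62 in MyD88-null cells (adjusted p = 0.780) and 0.70 in C57BL/6 cells (SE 0.448, adjusted p = 0.993). Within experiments Itgal was higher with apoA-I in 6 of 6 pairs, by 0.10 to 1.21, a pattern whose share over all genes was not counted. The other Itgal probe gave 0.68 in MyD88-null cells and 0.83 in C57BL/6 cells.

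Setting each gene's response against that of Icam1 tests the difference of responses directly. Nearly all genes lay below Icam1 in this test, by the shares given below, so a low p here is not particular to the integrins. The response of Itgb2 minus that of Icam1 was -5.06 in MyD88-null cells (limma's adjusted p = 1.25e-07) and -3.12 in C57BL/6 cells (SE 0.386, adjusted p = 1.37e-05). For Itgal it was -3.94 in MyD88-null cells (adjusted p = 6.56e-06) and -2.40 in C57BL/6 cells (SE 0.497, adjusted p = 0.000564). The partner chains Itgam (αM of Mac-1) and Itgax (αX) were at -4.65 and -4.61 relative to Icam1 in MyD88-null cells and at -3.46 and -2.84 in C57BL/6 cells, and their own responses were between -0.37 and 0.26. Of the other 8 members, 7 lay below Icam1 in each genotype when all samples were used, a share to be read against the 98.9% of all genes below it in MyD88-null cells and the 98.3% in C57BL/6 cells. Vcam1 was the exception, at -0.43 in MyD88-null cells (adjusted p = 0.592) and -1.05 in C57BL/6 cells (SE 0.783, adjusted p = 0.205). The Vcam1 interval in C57BL/6 cells ran from -2.76 to 0.65. Vcam1 too lay below Icam1 in C57BL/6 cells without control replicate 1 (-1.91, adjusted p = 0.0227) and with the experiment as a block (adjusted p = 0.0351).

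**Figure D4:**
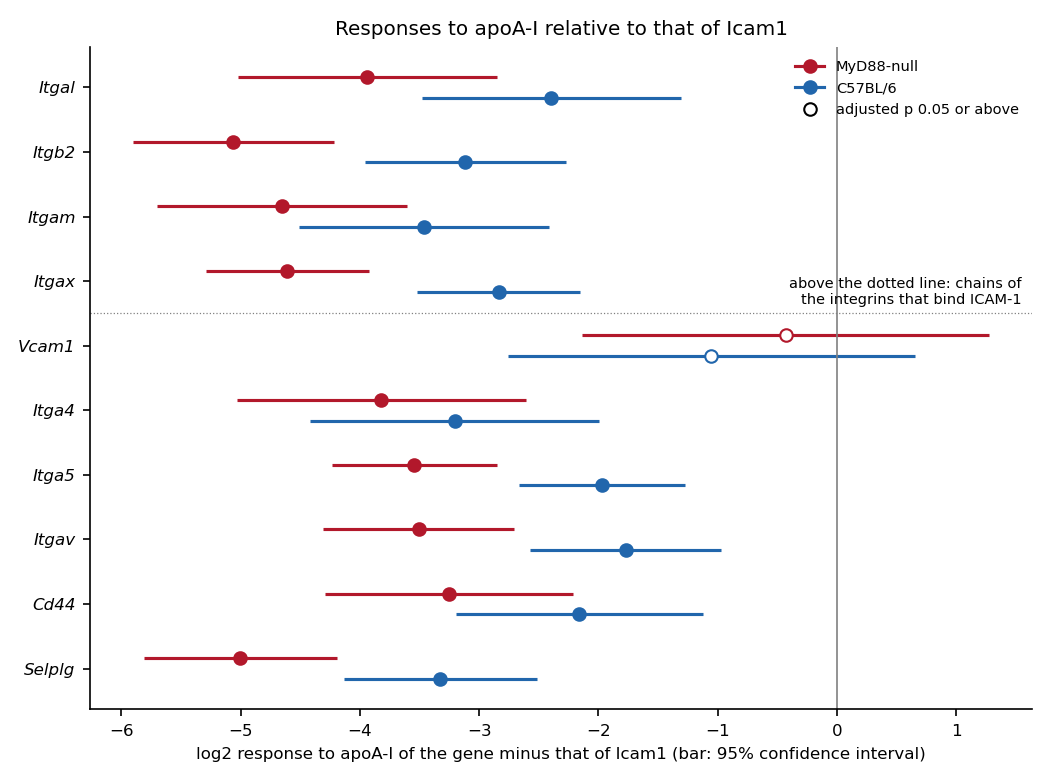
Log2 response to apoA-I of each gene minus that of Icam1 (horizontal axis) with 95% confidence intervals, by genotype. The chains of the ICAM-1 receptors are above the dotted line and all lie below 0, and only the Vcam1 intervals reach 0.

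Itga5, which with Itgb1 forms the main fibronectin receptor, had levels of 1.26, 1.67 and 1.03 with apoA-I and 0.33, 0.39 and 0.19 in control MyD88-null cells. Levels in C57BL/6 cells were 1.79, 1.67 and 1.02 with apoA-I and 0.66, 0.49 and -0.03 in controls. The treatments did not overlap in either genotype, with differences of 1.01 in MyD88-null cells (limma's adjusted p = 0.184) and 1.12 in C57BL/6 cells (SE 0.277, adjusted p = 0.147). The 6 differences within experiments lay between 0.84 and 1.28. With the experiment as a block the adjusted p was 0.0166 in MyD88-null cells and 0.0129 in C57BL/6 cells.

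Itgav, the αv chain of vitronectin receptors, had levels of 1.36, 2.79 and 2.23 with apoA-I and 0.67, 1.23 and 1.34 in control MyD88-null cells. The C57BL/6 samples had 1.99, 2.58 and 2.27 with apoA-I and 0.81, 1.17 and 0.91 in controls. The treatments did not overlap in either genotype, although the lowest MyD88-null apoA-I sample was close to the highest control. The differences were 1.05 in MyD88-null cells (adjusted p = 0.334) and 1.32 in C57BL/6 cells (SE 0.350, adjusted p = 0.191). Limma's adjusted p with the experiment as a block was 0.0347 in MyD88-null and 0.0165 in C57BL/6 cells. Within scan days the differences were uneven in MyD88-null cells, at 2.12, 0.14 and 0.89, and were 1.30 and 1.36 in C57BL/6 cells. The other Itgav probe above background, A_51_P498205, passed among probes, with 1.54 in MyD88-null cells (adjusted p = 0.0298) and 2.10 in C57BL/6 cells (adjusted p = 0.00637). The gene's call thus depends on the probe that stands for it.

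Itga4, the α4 chain of the VCAM-1 receptor, had levels of 1.09, -0.25 and -0.40 with apoA-I and -0.35, -1.13 and -0.30 in control MyD88-null cells. In C57BL/6 cells it had 0.07, -0.43 and 0.06 with apoA-I and 0.07, -0.41 and 0.39 in controls. The groups overlapped in both genotypes, with differences of 0.74 (adjusted p = 0.694) in MyD88-null cells and -0.11 (SE 0.412) in C57BL/6 cells. The highest MyD88-null value belonged to apoA-I replicate 1, the array with the lowest 75th percentile, and without it the MyD88-null difference was 0.27 (SE 0.331). Of the 6 Itga4 probes 3 were above background on too few arrays to be kept, and 1 of the other kept probes gave 0.66 in MyD88-null cells and 0.48 in C57BL/6 cells. The remaining one, A_52_P526816, was above background on 3 of 3 apoA-I and 0 of 3 control arrays in MyD88-null cells and on 1 of 3 apoA-I and 2 of 3 control arrays in C57BL/6 cells, and no difference is given for it.

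None of the β chains that pair with α4, α5 or αv passed. The response of Itgb1, the common β1 chain, was 0.087 in MyD88-null and 0.094 in C57BL/6 cells, and that of Itgb7, an α4 partner, was 0.15 in MyD88-null and 0.0013 in C57BL/6 cells. Among the partners of αv, Itgb3 had 0.17 in MyD88-null and -0.17 in C57BL/6 cells, and Itgb5 had -0.17 in MyD88-null and -0.071 in C57BL/6 cells. Itgb8, another αv partner, had -0.15 in MyD88-null and 1.01 in C57BL/6 cells (SE 0.641, adjusted p = 0.976). Its treatments did not overlap in C57BL/6 cells, where 6.77% of all genes were higher without overlap. With apoA-I Itgb8 was -1.71 in MyD88-null against C57BL/6 cells (adjusted p = 0.998), without overlap, as 2.41% of all genes were lower. Itgb3 was higher in every MyD88-null than in every C57BL/6 sample of the same treatment, by 0.86 in controls and 1.20 with apoA-I. Limma's adjusted p were 0.9998 and 0.92. Such a pattern was found in 6.84% of all genes in controls and in 3.21% with apoA-I.

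Cd44, the hyaluronan receptor, had levels of 6.27, 5.98 and 6.12 with apoA-I and 4.62, 4.59 and 5.26 in control MyD88-null cells. Corresponding C57BL/6 levels were 5.73, 6.25 and 6.54 with apoA-I and 4.74, 5.14 and 5.85 in controls. The treatments overlapped in C57BL/6 cells, where replicate 3 was the highest of both groups, and did not in MyD88-null cells. The differences were 1.31 in MyD88-null cells (limma's adjusted p = 0.128) and 0.93 in C57BL/6 cells (SE 0.327, adjusted p = 0.420). With the experiment as a block the adjusted p was 0.0201 in MyD88-null cells and 0.0727 in C57BL/6 cells. All 6 pairs were higher with apoA-I, by 0.69 to 1.66, a pattern whose share over all genes was not counted.

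A second Cd44 probe, A_52_P523459, gave 0.99 in MyD88-null cells and 0.80 in C57BL/6 cells. The third, shown above, lists 2 of the Cd44 transcripts on the array but not a further one, and gave 1.48 in MyD88-null cells and 1.58 in C57BL/6 cells. It was above background on 3 of 3 apoA-I and 1 of 3 control arrays in each genotype, so its control level is partly background.

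Selplg, the selectin ligand, was the member lower in 6 of 6 pairs, a pattern whose share over all genes was not counted. Its levels were 4.23, 4.39 and 3.99 with apoA-I and 4.91, 4.73 and 4.31 in control MyD88-null cells. In C57BL/6 cells it had 4.57, 4.15 and 3.59 with apoA-I and 4.67, 4.49 and 3.86 in controls. The groups overlapped in both genotypes, in MyD88-null cells through apoA-I replicate 2 alone, a sample of conflicting description. The differences of -0.45 in MyD88-null cells (adjusted p = 0.767) and -0.23 in C57BL/6 cells (SE 0.308) did not pass, nor did -0.54 in MyD88-null and -0.16 in C57BL/6 cells without the conflicting samples. Its other probe gave -0.72 in MyD88-null cells and -0.24 in C57BL/6 cells.

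Without the 2 samples of conflicting description, Itga5, Itgav, Cd44, Itgal and Itga4 had responses of 0.84, 0.72, 1.38, 0.54 and 0.94 in MyD88-null cells and of 1.18, 1.42, 0.88, 0.49 and -0.33 in C57BL/6 cells. None of these passed, as none had with all samples in the main fit, which did not have the experiment as a block.

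Between genotypes the members' differences ran from -2.27 to 0.31 in controls (median -0.31, beside 0.021 over all genes) and from -0.48 to 0.24 with apoA-I (median -0.17, beside 0.074). The difference of the responses had a median of -0.077 over the members and 0.049 over all genes.

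Few genes of the further adhesion lists passed, as was true of all genes. Of all genes 1.14% were called in MyD88-null cells and 0.83% in C57BL/6 cells. The counts in this list and in the selectin, hyaluronan and shedding lists below are to be read against these shares. Of 9 measured of 10 β2 integrins and Icam ligands, 1 was called higher in each genotype, Icam1 itself, with a median response of 0.62 in MyD88-null and 0.45 in C57BL/6 cells. None was called among 13 VCAM-1 and fibronectin receptor genes, 7 other integrin chains or 18 integrin activation genes, such as talins and kindlins, in either genotype, where the medians were 0.24, 0.29 and 0.028 in MyD88-null cells and 0.44, 0.037 and 0.099 in C57BL/6 cells. No gene of these lists was called lower.

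In the selectin list 1 of 15 genes was called in each genotype. It was Sele, which encodes E-selectin, a selectin best known from activated endothelium. Its probe had levels of -3.25, -2.64 and -3.72 with apoA-I in MyD88-null cells and of -2.86, -1.38 and -1.98 with apoA-I in C57BL/6 cells, while it was not well above background on any control array. Sele was at least 3.33-fold higher with apoA-I in MyD88-null cells and at least 7.02-fold higher in C57BL/6 cells. These bounds set the apoA-I mean against the lowest signal well above background on each control array. Limma's adjusted p (0.00104 in MyD88-null and 0.00108 in C57BL/6 cells) came from the measured control values, not from these bounds. The probe was kept only through its apoA-I groups, where it was high, so the calls are not separate support. Of 7 endothelial markers 5 were measured and 3 were above background on all 12 arrays, while Emcn and Pecam1 were not measured. None was called, and their summed level ranged from 12.7 to 17.9 in MyD88-null cells with apoA-I, from 13.9 to 17.2 in MyD88-null controls, from 12 to 16.2 in C57BL/6 cells with apoA-I and from 10.9 to 14.2 in C57BL/6 controls, in units of the array's 75th percentile. Their part in the Sele and Vcam1 values was not tested.

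Of 13 measured of 16 CD44 and hyaluronan genes, 1 was called, in MyD88-null cells: Tnfaip6, which encodes a hyaluronan-binding protein of inflammation. It was at least 9.92-fold higher there, its probe being above background on no MyD88-null control array. Limma's adjusted p of 0.00864 came from the measured control values, not from this bound, and the probe was kept only through the apoA-I groups. In C57BL/6 cells the difference of Tnfaip6 was 3.03 (adjusted p = 0.152), with 2 of 3 control arrays above background. Among 10 genes of shedding enzymes and their regulators 1 was called in each genotype, Rhbdf2, which helps the sheddase ADAM17 to the cell surface. It rose by 1.38 in MyD88-null cells (adjusted p = 0.00418) and by 1.03 in C57BL/6 cells (adjusted p = 0.0338). Markers of mesothelial cells and fibroblasts, which can express Vcam1, were above background for 10 of 10 genes on all 12 arrays. None of the 10 was called with apoA-I, and all 10 differences were above 0 in both genotypes. Their summed level ranged from 66.7 to 202 in MyD88-null cells with apoA-I, from 55.4 to 235 in MyD88-null controls, from 85.8 to 254 in C57BL/6 cells with apoA-I and from 67.6 to 234 in C57BL/6 controls, and their part in the Vcam1 values was not tested. Of 6 T cell markers, Cd247 alone was called, in C57BL/6 cells (2.99, adjusted p = 0.00147).

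The genes with levels most like those of Icam1 over the 12 arrays were Cflar, an inhibitor of death receptor signalling (Pearson r = 0.993), the small GTPase Rnd1 (r = 0.989), Phldb1 (r = 0.989), Rhbdf2 (r = 0.987) and the costimulatory receptor Cd40 (r = 0.985). The arrays share the 4 treatment groups, so these values describe the pattern over groups and carry no p. All 5 genes were called with apoA-I in both genotypes. They were chosen by their likeness to Icam1 on these same arrays, so their calls are not separate support. Cflar rose by 2.86 in MyD88-null and by 2.09 in C57BL/6 cells, and Cd40 by 4.25 in MyD88-null and by 3.86 in C57BL/6 cells. Among the members, the correlation with Icam1 over the 12 arrays was 0.89 for Itga5, 0.88 for Vcam1, 0.84 for Cd44, 0.82 for Itgav and 0.59 for Itgal. It was 0.36 for Itga4, -0.21 for Itgb2 and -0.49 for Selplg.

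Promoters of 5 of the 9 members were in the RefSeq table, those of Icam1, Itga4, Itga5, Itgav and Cd44. Motif letters were searched on both strands in the 250 bases before the start. The NF-kappaB letters GGGNNNNNCC were in 45.8% of 32851 promoters and in those of Icam1, Itgav and Cd44. In Icam1 they stood from base -120 to -111 before the start. The more exact letters GGAAATTCC, chosen after the Icam1 promoter had been read, were in 0.286% of promoters and, among the 5 members, in Icam1, from -153 to -145. The GAS letters TTCNNNGAA were in 7.02% of promoters and, of these members, in Icam1 from -42 to -34. The AP-1 letters TGANTCA (6.75% of promoters) and the TATA box letters TATAAA (12.4%) were in none of the 5, and the ETS core GGAA, which overlaps the 9-letter NF-kappaB match and the GAS match of Icam1, was in 93.4% of promoters and in all 5. These matches describe letters and were not tested against the expression values.

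**Figure D5:**
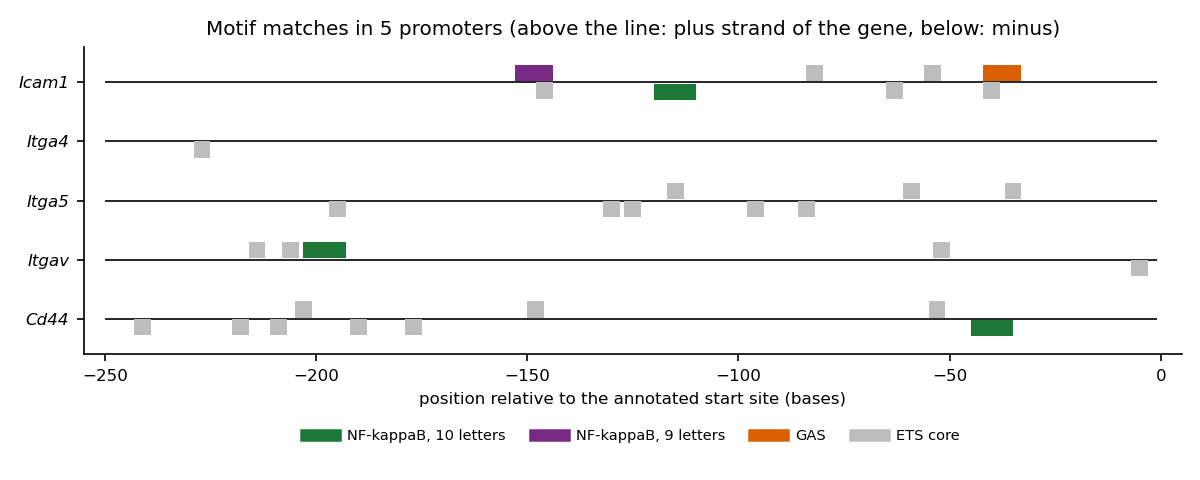
Matches of the motifs in the 250 bases before the start site of the 5 members with a promoter in the table (horizontal axis: bases from the start site). Each mark is a match on either strand; the 9-letter NF-kappaB and the GAS match stand in the row of Icam1.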

How the data were processed

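Total RNA (500 ng) was labelled with Cy3 and hybridised to 12 one-colour Agilent arrays. Processed intensity per spot was deposited by the authors after Agilent Feature Extraction 9.5 (per the submitters' processing notes and the file headers), corrected for background within each array. The deposited value table holds log10 intensity, which correlated with log10 of the scanner values at 0.993 or more; no source used here states its centring or scaling, and it served as an alternative.

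From the processed intensity, control spots and outlier spots were left out, spots of a probe were averaged, and log2 values were taken relative to each array's 75th percentile. A probe was kept where all 3 arrays of some group showed it well above background (24351 of 41174). Gene names were updated through RefSeq accessions and synonyms, and the probe with the highest mean stood for a gene, giving 16744 genes. All 4 groups were fitted together with limma 3.58.1 in R 4.3.3, and p-values were adjusted by Benjamini-Hochberg over all genes, with 0.05 as threshold. Responses were set against that of Icam1 by refitting the difference of each gene and Icam1 on every array. The fit was also run on simulated data with known changes. The simulated noise was independent between arrays, so that run does not bear on the pairing of samples described next. The number of arrays limits the precision.

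The series names 3 replicate experiments of 4 samples, so replicate numbers pair samples. Same-numbered samples deviated together from their group means (r from 0.296 to 0.859 over 18 pairs, and from -0.812 to 0.547 over 36 pairs of different number). The fit without this block was the main one. Arrays lay on 5 slides and 3 scan days, which were tried as blocks.

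The members and lists were chosen with earlier results of these data known. All 9 members were named. Further genes were named where they were called or are a partner chain of a member, and the genes most like a called member by their correlation over the arrays.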

Additional observations from a re-analysis of the deposited data

How the results depend on the processing

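The Icam1 response kept its direction and its call in 26 of 27 alternatives in each genotype. The difference of its responses kept its direction and stayed uncalled in 26 of 26. The other single-gene values kept their direction and stayed called or uncalled, as in the main fit, in 501 of 539. Taking the treatment of the 2 conflicting samples from their descriptions gave Icam1 3.11 (adjusted p = 0.879) in MyD88-null and 2.41 (adjusted p = 1) in C57BL/6 cells, 0 members called, and 0 members that differed from Icam1 in either genotype; the difference of the Vcam1 responses turned to -0.15 and the Icam1 difference between genotypes with apoA-I to 0.20. Without the conflicting samples, 2 members rather than 0 were lower on every MyD88-null apoA-I array. Leaving out 1 array gave Icam1 4.35 to 4.73 in MyD88-null and 2.91 to 3.21 in C57BL/6 cells, with 1 member called throughout.

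The members called in MyD88-null and C57BL/6 cells, 1 each, were 5 and 4 with the replicate block, 4 and 4 with the slide as a random block, 3 and 2 with scan day as a block, 2 and 3 for the mean of a gene's probes and 2 and 2 for every probe on its own; trend and robust variance gave 2 in MyD88-null cells. Between genotypes in controls, 0 became 2 with the replicate block (Icam1 and Vcam1) and 1 (Icam1) with normexp and quantile normalization, the deposited table, probes above background on all 12 arrays, slide, or trend and robust variance. Genes called, 191 in MyD88-null and 139 in C57BL/6 cells, were 682 and 570 with the replicate block, 659 and 755 with slide, 357 and 323 with scan day, 83 and 80 with median scaling, 90 and 81 with the arrays of 1 genotype, 90 and 59 without the conflicting samples, and 0 and 0 by the descriptions; without the filter on dim probes C57BL/6 cells gave 83. The difference of the responses gave 0, 5 with normexp and 2 with slide. Genotype counts, 16 in controls and 11 with apoA-I, were 99 and 38 with the replicate block, 68 and 44 with slide, 1 and 5 with the arrays compared, and 2 and 2 by the descriptions; trend and robust variance gave 32 in controls, and with apoA-I scan day gave 17 and probes above background on all 12 arrays 3.

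Values near 0 in C57BL/6 cells changed sign: Itgb2 was 0.032 with slide, 0.022 without the conflicting samples, 0.052 by the descriptions and -0.25 to 0.22 with 1 array left out, where Itga4 ran from -0.33 to 0.073 and Selplg from -0.47 to 0.022. The causes were not tested. Signal over background limits the Cd44, Sele and Tnfaip6 values.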
